A study of Mus musculus with 2 samples.

Results

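The serpins are a large family of proteins, most of which trap and inactivate a serine protease that cuts an exposed stretch near their carboxyl end, the reactive centre loop. Hepatocytes secrete many of them into blood, where they hold back elastase, clotting, fibrinolytic and complement proteases, while a few members carry hormones or chaperone collagen and inhibit no protease. Clade A holds the secreted alpha-1-antitrypsin (Serpina1) and antichymotrypsin-like (Serpina3) genes, each present as several copies in the mouse, and clade B holds inhibitors that stay inside cells. The family was taken here as every gene whose Ensembl mouse symbol begins with Serpin. The count files held 68 such rows among 52636 named genes, 7 of them pseudogenes, and 32 had at least 20 counts summed over both libraries, 2 of those being pseudogenes (Serpina3h and Serpina4-ps1). All counts below are of sequencing reads assigned to genes by the authors.

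The livers came from C57BL/6 mice of 8 weeks on normal chow. RNA of 4 mice per genotype was pooled and sequenced as 1 library for each pool. The library labelled HKO is from Mettl3 flox/flox mice that also carried Alb-Cre +/-, in which the albumin promoter drives Cre in hepatocytes, and the library labelled flox is from Mettl3 flox/flox mice without Cre, so both carry the floxed gene of the N6-methyladenosine (m6A) methyltransferase. Both libraries were liver by their markers, with albumin at 886277 counts in HKO and 1460053 counts in flox. Named genes received 18438807 counts in HKO and 21457504 counts in flox. Mettl3 itself (chromosome 14, positions 52294841 to 52305128, minus strand) had 220 counts in HKO against 156 counts in flox, a log2 ratio of 0.45 (0.15 to 0.75), which goes against the label, although a count over the whole gene checks a deletion of a few exons poorly. Of the Mettl3 exon bases, 18.4% also lay in exons of other genes. By immunoblot the paper reported much less METTL3 protein in knockout livers, which these libraries do not measure. HKO and flox below therefore mean only the libraries so labelled. Neither genotype has a second pool, so nothing here could be checked against replicates, no p-value is given, and each interval covers counting error only, at 95% by the exact Clopper-Pearson method.

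A ratio is HKO over flox after scaling with edgeR's trimmed mean of M values (TMM), and a gene is said to have risen or fallen where the ratio was at least 2-fold with an interval that left out equality. Of 14433 genes with at least 20 counts, 828 rose (5.74%), 672 fell (4.66%) and 1500 did either (10.4%). With scaling by total counts, which moves every log2 ratio up by 0.27 and the median of all genes to 0.28, 1504 rose and 409 fell. Of the 32 serpins, 2 rose, namely Serpina7 and Serpinb1a, and 4 fell, namely Serpina1e, Serpina12, Serpina4-ps1 and Serpine2. The 6 genes are 18.8% of the members measured, above the 10.4% over all genes, but 1 gene more or less would move that share by several points. The median log2 ratio of the 32 serpins was −0.23, against 0.0097 over all genes tested, and it became 0.038 with scaling by total counts. Serpins with at least 1000 counts in either library numbered 17 and had a median of −0.26, against −0.13 for the 3324 genes chosen by the same rule. Of the 17, Serpina7 reached 1000 counts only in HKO and Serpina4-ps1 only in flox, so that rule is not independent of the ratios.

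Together the serpin rows took 376272 counts in HKO, 2.04% of the library (2.03 to 2.05), and 631195 counts in flox, 2.94% (2.93 to 2.95). Serpina1 accounted for most of the gap, with 0.750% of all counts in HKO and 1.61% in flox. Serpina3 took 0.675% in HKO and 0.782% in flox. The clades C to I, with antithrombin and other plasma inhibitors, took 0.509% in HKO and 0.495% in flox, shares that differed by far less. The other clade A genes took 0.0981% in HKO and 0.0563% in flox, and clade B took 0.00848% in HKO and 0.00301% in flox. Shares of this kind use no scaling factor, but each depends on every other gene in the library. After TMM scaling, albumin and the other 5 hepatocyte markers examined had log2 ratios below 0, between −0.84 and −0.03. Scaling by total counts moves each up by 0.27, which puts the marker nearest 0, Apoa1, above 0. In bulk liver fewer hepatocytes cannot be told apart from less RNA of these genes per hepatocyte.

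**Figure D1:**
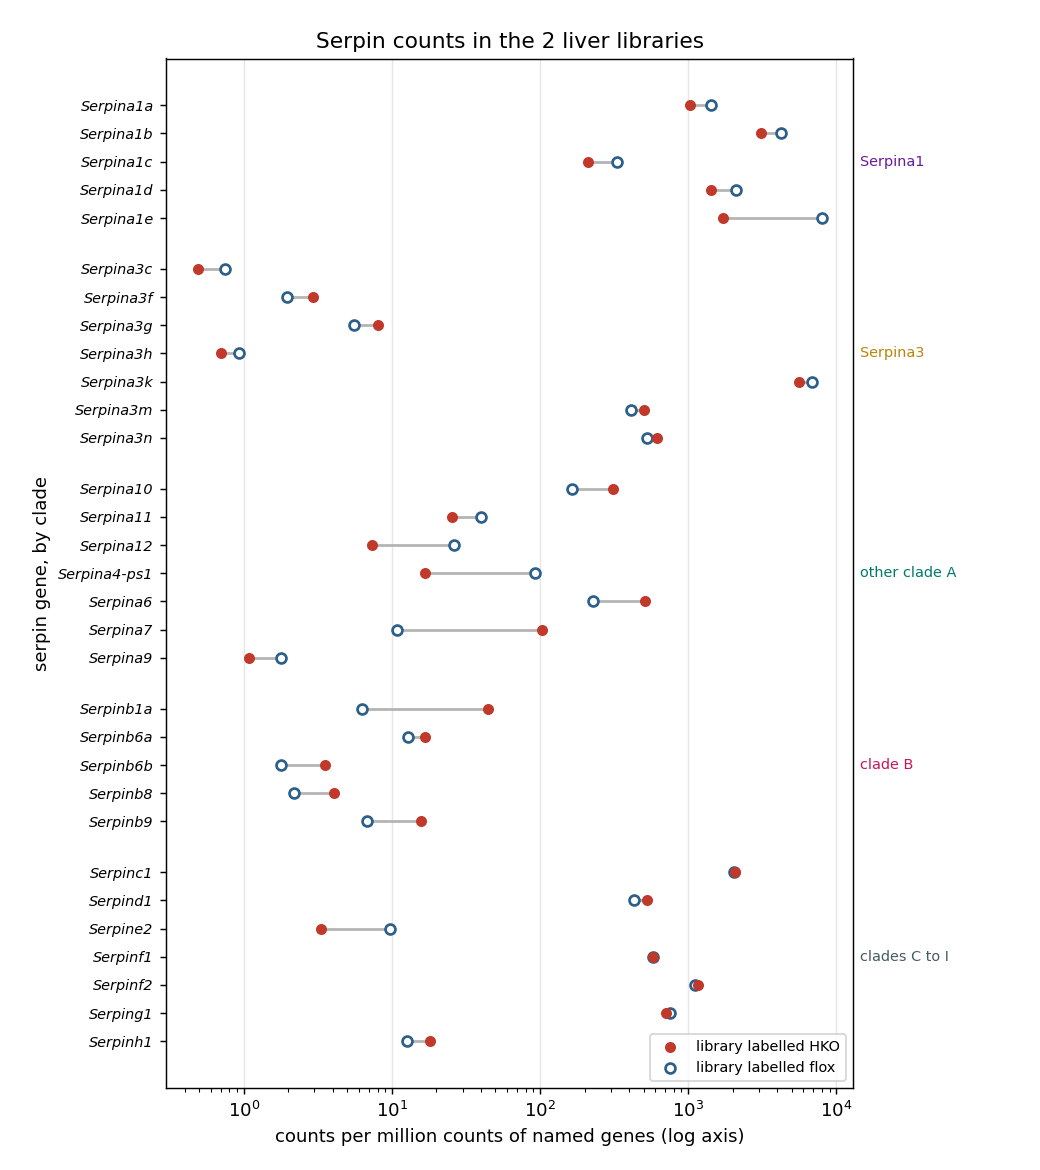
Counts scaled to library size (CPM, log axis) for 31 of the 32 serpins with at least 20 counts, by clade, in the library labelled HKO (filled) and the library labelled flox (open). Serpina1e and Serpina4-ps1 lie far to the left in HKO, Serpina7 and Serpinb1a far to the right, and the plasma inhibitors of clades C to I nearly coincide.

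The Serpina1 genes encode alpha-1-antitrypsin, the main plasma inhibitor of neutrophil elastase, and the mouse copies differ in the loop that a protease reads as bait as well as elsewhere. The 5 copies measured here share 96.3% to 98.5% of their coding bases. The loop is shown because the summed Serpina1 counts were past 2-fold lower in HKO only with 1 copy, Serpina1e, included. Each line is 81 bases of the last coding exon, exon 5 of 5, on the minus strand of chromosome 12 (GENCODE M21 transcripts, build GRCm38), beginning at the hinge of the loop. Capitals mark the 18 positions, 22.2% of the stretch, at which the 5 genes are not all alike.
Serpina1a: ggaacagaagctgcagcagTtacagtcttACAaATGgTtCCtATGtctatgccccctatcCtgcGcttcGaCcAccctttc
Serpina1b: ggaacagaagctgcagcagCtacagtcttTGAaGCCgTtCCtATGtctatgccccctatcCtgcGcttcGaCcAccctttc
Serpina1c: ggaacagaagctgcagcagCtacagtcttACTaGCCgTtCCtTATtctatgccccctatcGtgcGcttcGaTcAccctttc
Serpina1d: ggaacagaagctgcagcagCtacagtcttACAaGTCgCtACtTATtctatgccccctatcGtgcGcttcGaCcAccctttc
Serpina1e: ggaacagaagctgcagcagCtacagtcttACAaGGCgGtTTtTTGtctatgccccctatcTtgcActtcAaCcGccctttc
The Serpina1e stretch lies at chr12:103947093-103947173. In pairwise alignments that allowed gaps it differed from the other copies by 10 to 12 positions, and the other copies differed among themselves by 5 to 9. Counted column by column without gaps, as the lines are printed, some pairs differ at more positions. The ranges then meet, so the stretch alone does not set Serpina1e clearly apart. Over the whole coding sequence Serpina1e differed from the others at 42 to 46 positions. The pairs without it differed at 37 to 41, except the closest, Serpina1a and Serpina1c, at 18.

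Serpina1e had the largest change among the Serpina1 and Serpina3 genes. It had 31536 counts in HKO and 170775 counts in flox, 5.60-fold lower in HKO (5.53 to 5.67), a log2 ratio of −2.48. In flox it ranked 8 among all genes by counts, and in HKO it ranked 59. Serpina1b had 57497 counts in HKO and 91072 counts in flox, a log2 ratio of −0.71 (−0.73 to −0.70). Serpina1d had 26476 counts in HKO and 44970 in flox, a log2 ratio of −0.81 (−0.83 to −0.79). Serpina1a had 18853 counts in HKO and 30570 in flox, a log2 ratio of −0.75 (−0.77 to −0.72). These 3 copies were thus lower in HKO by nearly the same factor, between 1.64-fold and 1.76-fold, and none reached 2-fold. That factor was not particular to Serpina1. Albumin was 1.70-fold lower in HKO, and the 6 hepatocyte markers were lower by 1.02-fold (Apoa1) to 1.79-fold (Tat). Serpina1c, the least abundant copy, had 3915 counts in HKO and 7071 in flox, a log2 ratio of −0.90 (−0.96 to −0.84). The sixth row, Serpina1f, had no count in either library, which allows up to 3 counts in each. All 5 measured copies stayed lower in HKO under each scaling tried.

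The Serpina1 counts summed to 138277 in HKO and 344458 in flox, 2.58-fold lower in HKO (2.56 to 2.59). Without Serpina1e the sum was 106741 in HKO and 173683 in flox, 1.68-fold lower (1.67 to 1.70), so the summed fall passed 2-fold only with that copy included. The make-up of the sum changed accordingly, and this comparison needs no scaling between libraries. Serpina1e was 22.8% of Serpina1 counts in HKO (22.6 to 23.0) and 49.6% in flox (49.4 to 49.7). Serpina1b was 41.6% in HKO (41.3 to 41.8) and 26.4% in flox (26.3 to 26.6), which made it the leading copy in HKO. Serpina1d was 19.1% in HKO and 13.1% in flox, Serpina1a was 13.6% in HKO and 8.87% in flox, and Serpina1c was 2.83% in HKO and 2.05% in flox.

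These copies are near-identical, so some reads cannot be placed on 1 of them. Of the 100-base words in the annotated exons of Serpina1c, 69.3% also occurred in another gene, chiefly Serpina1a. The share was 42.8% for Serpina1a and 29.3% for Serpina1d, but only 14.8% for Serpina1b and 14.4% for Serpina1e. The contrast between Serpina1e and Serpina1b therefore rests on the 2 copies with the most sequence of their own, and the values of Serpina1c in particular are uncertain. With only those 2 copies summed, the log2 ratio was −1.60. Serpina1c also overlapped the antisense gene B430119L08Rik over 31.5% of its exon bases. Whether strand was used in counting is not stated, so reads of the pair cannot be told apart. That gene had 72 counts in HKO and 185 counts in flox, and Gm8893, an unprocessed pseudogene inside the same cluster that shares words with all 5 copies, had 272 counts in HKO and 648 in flox.

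**Figure D2:**
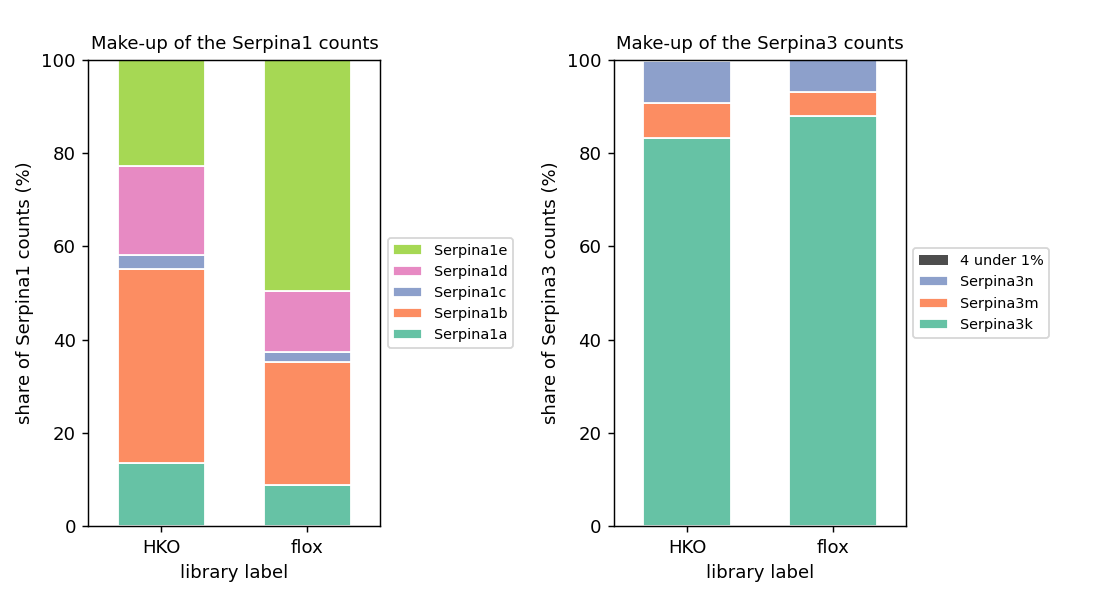
Share of Serpina1 counts (left) and Serpina3 counts (right) taken by each gene, in percent, in the library labelled HKO (left bar) and the library labelled flox (right bar). Serpina1e takes 22.8% in HKO and 49.6% in flox, while Serpina3k takes 83.2% of Serpina3 in HKO and 87.9% in flox.

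The Serpina3 genes, of which the human genome has only the antichymotrypsin gene, had no member that rose or fell. Of 14 rows, 4 of them pseudogenes, 7 passed 20 counts. Serpina3k, known as contrapsin, was the most abundant serpin in HKO by counts and per length. It had 103666 counts in HKO and 147410 counts in flox, a log2 ratio of −0.56 (−0.57 to −0.54). Serpina3n, an acute-phase inhibitor of granzyme B and cathepsin G, had 11297 counts in HKO and 11309 in flox, a log2 ratio of −0.05 that became 0.22 with scaling by total counts. Serpina3m, the closest relative of Serpina3k with 91.1% of coding bases alike, had 9340 counts in HKO and 8852 in flox, a log2 ratio of 0.03 (−0.01 to 0.07). Serpina3k thus stood apart from its nearest copies. It made up 83.2% of Serpina3 counts in HKO (83.0 to 83.4) and 87.9% in flox (87.7 to 88.0). Serpina3m took 7.50% in HKO and 5.28% in flox, and Serpina3n took 9.07% in HKO and 6.74% in flox.

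The summed Serpina3 counts were 124542 in HKO and 167772 in flox, 1.39-fold lower in HKO (1.38 to 1.40). Without Serpina3k they were 20876 in HKO and 20362 in flox, a log2 ratio of −0.01 (−0.04 to 0.02). The sum was lower in HKO under TMM, total-count, DESeq2 and upper-quartile scaling, and 0.14 higher on the log2 scale where the libraries were set equal on 6 hepatocyte markers, a scaling chosen after seeing the data. Reads of Serpina3k and Serpina3m can be told apart over most of their length, since only 4.85% and 6.09% of their 100-base words were shared. Their loops, shown as a stretch where the copies differ, were 74.7% alike between Serpina3k and Serpina3m, with 24 differences over 95 aligned positions. Capitals span from the conserved hinge to the conserved end of the loop (exon 5 of 5, plus strand, GRCm38).
Serpina3k: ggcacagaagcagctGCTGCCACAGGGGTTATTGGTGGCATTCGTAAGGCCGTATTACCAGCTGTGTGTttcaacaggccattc
Serpina3m: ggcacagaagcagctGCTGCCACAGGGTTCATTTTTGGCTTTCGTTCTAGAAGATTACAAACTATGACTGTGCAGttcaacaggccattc
Serpina3n: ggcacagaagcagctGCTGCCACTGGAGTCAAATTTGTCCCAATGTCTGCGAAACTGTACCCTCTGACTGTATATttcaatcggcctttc
The first lies at chr12:104345269-104345352, the second at chr12:104393769-104393858 and the third at chr12:104413448-104413537.

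The minor Serpina3 genes were near the floor of detection. Serpina3g, first described in activated T cells and blood progenitors, had 149 counts in HKO and 119 counts in flox, a log2 ratio of 0.28 (−0.08 to 0.64). Serpina3f had 54 counts in HKO and 42 in flox, a log2 ratio of 0.31 (−0.29 to 0.93). The pseudogene Serpina3h had 13 counts in HKO and 20 in flox, and Serpina3c had 9 in HKO and 16 in flox, with intervals of their log2 ratios from −1.80 to 0.41 and from −2.24 to 0.39. All 4 intervals included 0, so no difference was detectable at this depth. Serpina3c and Serpina3h were also the 2 members just inside the limit of 20 counts, with 25 and 33 in all. Just outside it were Serpina3i with 11 counts, 8 in HKO and 3 in flox, and Serpina5 and Serpini1 with 10 each.

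The remaining clade A genes were the only group with calls in both directions. Of 9 rows 7 were measured, and 1 rose and 2 fell. That is 42.9% of the members measured, against 10.4% of all genes that rose or fell. The share rests on only 7 genes, 1 of them a pseudogene. Serpina7 encodes thyroxine-binding globulin, a carrier of thyroid hormone that inhibits no protease, and it alone of the clade A genes lies on chromosome X (139079257 to 139085236, minus strand). It had 1905 counts in HKO and 232 counts in flox, 7.93-fold higher in HKO (6.93 to 9.14), the largest rise among the serpins. The carrier of glucocorticoids, corticosteroid-binding globulin (Serpina6), had 9498 counts in HKO and 4886 in flox, 1.88-fold higher (1.82 to 1.95), and it passed 2-fold with scaling by total counts, where its log2 ratio moved to 1.18 against 0.91. Both hormone carriers were thus higher in HKO. Serpina10, the protein Z-dependent inhibitor of factor Xa, had 5736 counts in HKO and 3528 in flox, 1.57-fold higher (1.51 to 1.64).

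Serpina4-ps1, an unprocessed pseudogene named for kallistatin (Serpina4), had 310 counts in HKO and 1974 counts in flox, the largest fall of the family at a log2 ratio of −2.72 (−2.90 to −2.55). No 100-base word of it was shared with another gene. Serpina12, which encodes vaspin, a secreted inhibitor of kallikrein 7 known from fat tissue, had 136 counts in HKO and 562 in flox, 4.26-fold lower in HKO (3.54 to 5.19). Serpina11 had 466 counts in HKO and 852 in flox, a log2 ratio of −0.92 (−1.08 to −0.75), and 40.8% of its exon bases lay in exons of the overlapping gene Gm28577. Serpina9, known from germinal centre B cells, had 20 counts in HKO and 38 in flox, a log2 ratio of −0.96 (−1.83 to −0.16) that passed 2-fold only with upper-quartile scaling, at −1.03.

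Of the 68 rows, 28 lie together on chromosome 12 between 103614786 and 104414329, over 799.5 kb, and 18 of those were measured. The 2 genes at the first end, Serpina10 and Serpina6, were higher in HKO. The next 9 measured serpins along the chromosome, from Serpina1b to Serpina4-ps1, were all lower in HKO, and the 3 that fell, Serpina1e, Serpina12 and Serpina4-ps1, lay in the later part of that stretch with Serpina11 and Serpina9 between them. The Serpina3 genes at the other end had log2 ratios from −0.84 to 0.31. Only 2 of the 14 other rows in the region were measured, Gm8893 and B430119L08Rik, both of which fell and both of which share sequence or exons with Serpina1 copies.

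**Figure D3:**
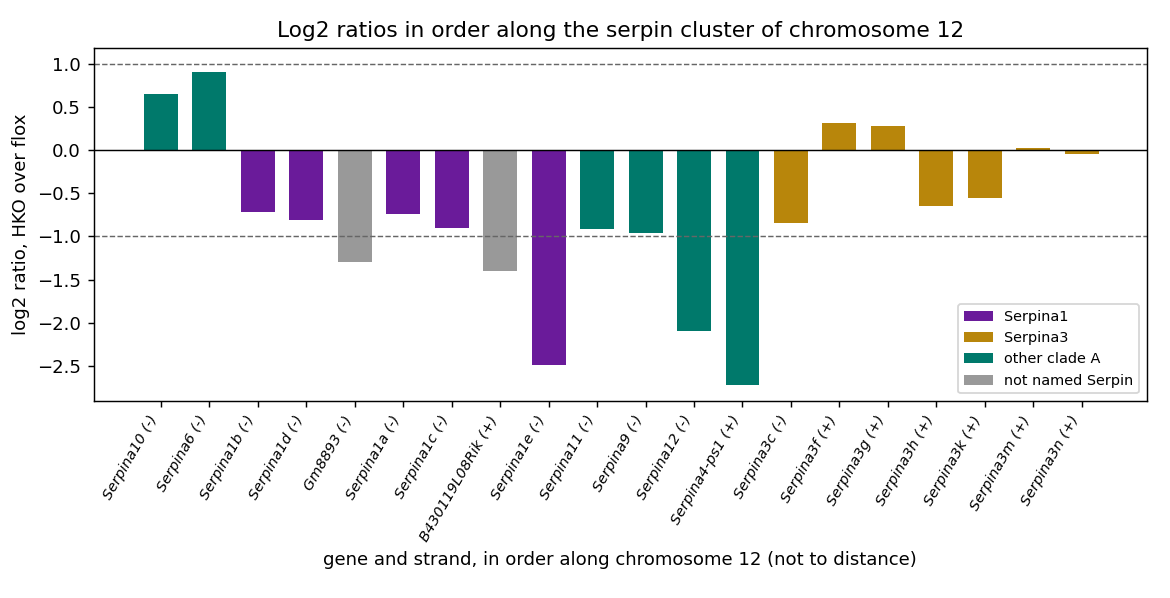
Log2 ratio, HKO over flox, of the 20 measured genes of the serpin cluster in their order along chromosome 12, with strand in brackets and dashed lines at 2-fold. Bars below 0 run without a break from Serpina1b to Serpina3c and are deepest at Serpina1e, Serpina12 and Serpina4-ps1.

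All 5 measured clade B genes, inhibitors that act inside cells, had log2 ratios above 0, and this held under each scaling tried. Of all genes tested, 50.8% had log2 ratios above 0. So did 9 of the 15 measured serpins with under 1000 counts in both libraries, which include these 5 and had a median of 0.27. Of 28 rows, 18 had no count and 5 had fewer than 20. Serpinb1a, an inhibitor of the neutrophil proteases elastase, proteinase 3 and cathepsin G (chromosome 13, 32842092 to 32851185, minus strand), had 821 counts in HKO and 134 counts in flox, 5.91-fold higher in HKO (4.93 to 7.17). Serpinb9, which protects cells against granzyme B, had 291 counts in HKO and 146 in flox, a log2 ratio of 0.94 (0.66 to 1.24) that passed 2-fold with scaling by total counts at 1.21. Serpinb6b had 65 counts in HKO and 38 in flox, a log2 ratio of 0.72 (0.13 to 1.34). Serpinb8, whose human counterpart inhibits furin in test-tube assays, had 75 counts in HKO and 47 in flox, a log2 ratio of 0.62 (0.08 to 1.18). Serpinb6a, an inhibitor of cathepsin G, had 307 counts in HKO and 274 in flox, a log2 ratio of 0.12 (−0.12 to 0.36), and 29.3% of its exon bases lay in other genes.

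Clade B genes are strong in blood cells, so marker lists were set beside them. All 7 macrophage and Kupffer cell markers had log2 ratios above 0, from 0.29 to 1.52, and 3 rose (Cd68, Marco and Vsig4), against 5.74% of all genes. Their counts summed to 6995 in HKO and 4476 in flox, or 379 CPM (counts scaled to library size) in HKO and 209 CPM in flox. The neutrophil markers Elane and Mpo were at 0 in both libraries, and the 5 neutrophil markers together had 16 counts in HKO and 18 in flox. The 5 T and NK cell markers had 59 counts in HKO and 30 in flox, and the 3 B cell markers had 55 in HKO and 46 in flox. The 4 platelet markers were not uniform, and summed to 133 counts in HKO and 210 in flox. Itga2b had most of these, with 96 in HKO and 173 in flox. Pf4 had 16 in HKO and 23 in flox, while Ppbp had 14 and 10 and Gp9 had 7 and 4. The 3 mast cell markers had 0 counts in HKO and 2 in flox. The part of macrophages in the clade B ratios was not tested.

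In clades C to I, 1 of 8 measured genes fell and none rose. The abundant plasma inhibitors differed little between the libraries. Antithrombin (Serpinc1), the inhibitor of thrombin and factor Xa, had 38359 counts in HKO and 43853 counts in flox, a log2 ratio of −0.24 that became 0.026 with scaling by total counts. Alpha-2-antiplasmin (Serpinf2), which inhibits plasmin, had 21366 counts in HKO and 23999 in flox, a log2 ratio of −0.22 that became 0.051 with that scaling. C1 inhibitor (Serping1), which acts on the first complement proteases and on kallikrein, had 13035 counts in HKO and 16202 in flox, a log2 ratio of −0.36 (−0.40 to −0.33). Pigment epithelium-derived factor (Serpinf1), which inhibits no protease, had 10638 counts in HKO and 12343 in flox, a log2 ratio of −0.26 that became 0.0043 with scaling by total counts. Heparin cofactor II (Serpind1), a second thrombin inhibitor, had 9772 counts in HKO and 9227 in flox, a log2 ratio of 0.03 (−0.01 to 0.08). The direction of Serpinc1, Serpinf1 and Serpinf2 thus depended on the scaling. Of the exon bases of Serpinc1, 34.4% lay in exons of its neighbour Zbtb37.

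Of the less abundant genes of these clades, 1 fell. Serpine2, protease nexin-1, an inhibitor of thrombin and urokinase (chromosome 1, 79794197 to 79861180, minus strand), had 61 counts in HKO and 208 counts in flox, 3.50-fold lower in HKO (2.64 to 4.77). Serpinh1, the collagen chaperone Hsp47, had 336 counts in HKO and 270 in flox, a log2 ratio of 0.27 (0.03 to 0.50). The 13 collagen genes that such a chaperone serves had a median log2 ratio of 0.10, with none past 2-fold. Among them Col18a1 had 34413 counts in HKO and 37966 in flox, and Col4a1 had 2283 in HKO and 1185 in flox.

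**Figure D4:**
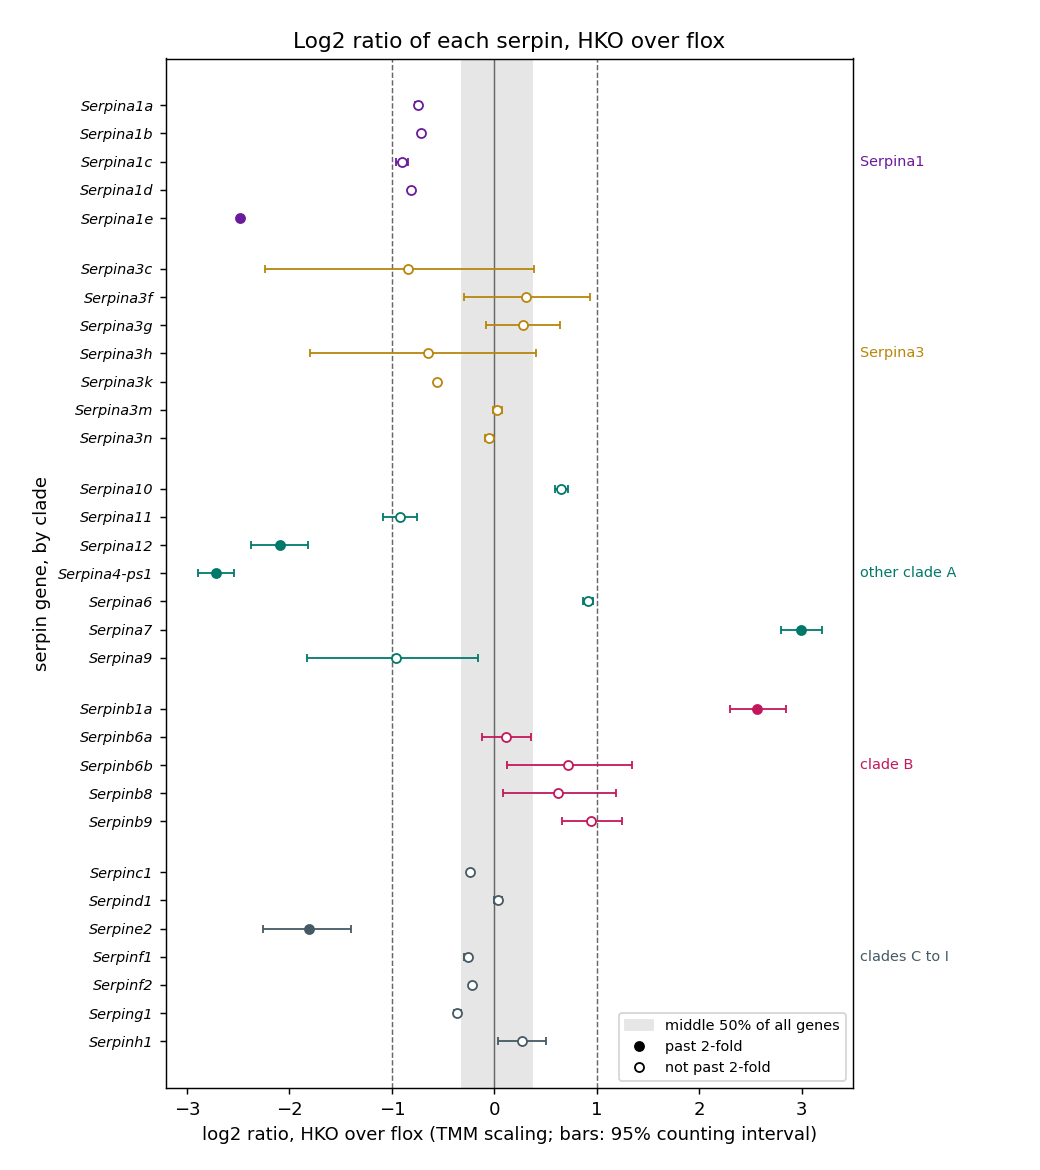
Log2 ratio, HKO over flox, of 31 of the 32 measured serpins, each with its 95% counting interval, by clade, with filled points for the 6 past 2-fold and a grey band for the middle 50% of all genes tested. All 5 Serpina1 points lie left of the band and Serpina7 and Serpinb1a lie beyond 2.5 on the right.

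Compared per length, as counts per kilobase of annotated exon over library size (RPKM), the serpin at the head of the order differed between the libraries. In HKO the order was led by Serpina3k at 2733 RPKM, followed by Serpina1b at 1291, Serpina1e at 1058 and Serpina1d at 1030. In flox Serpina1e led at 4922 RPKM, followed by Serpina3k at 3340, Serpina1b at 1757 and Serpina1d at 1503. Places 5 to 8 were held by Serpina1a, Serpinf2, Serping1 and Serpina3n in both libraries. Serpina6 was at place 10 with 293 RPKM in HKO and at place 14 with 129 RPKM in flox, and Serpina7 was at 42.2 RPKM in HKO and 4.42 RPKM in flox. Neighbours whose values lie close, such as Serpinf1 at 244.6, Serpinc1 at 243.4 and Serpind1 at 241.9 RPKM in HKO, cannot be ordered, since exon lengths are annotated and not measured, and Serpinc1 is divided by 8546 bases of exon.

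Genes that work with the serpins were examined as lists, read against the 10.4% of all genes that rose or fell. Of 26 measured proteases that serpins inhibit, 1 rose and 1 fell, and the list had a median log2 ratio of −0.26. Prostasin (Prss8) had 1519 counts in HKO and 292 counts in flox, a log2 ratio of 2.33. Proteinase 3 (Prtn3) had 10 counts in HKO and 34 in flox, a log2 ratio of −1.76. The elastase and cathepsin G genes of neutrophils, Elane and Ctsg, were at 0 in both libraries. Of 24 other protease inhibitors, Slpi rose with 49 counts in HKO and 17 in flox. Wfdc2 fell with 44 counts in HKO and 132 in flox, and Fetub and Mug1 were just past 2-fold, at log2 ratios of −1.03 and −1.02 that became −0.76 and −0.75 with scaling by total counts. Of 11 cofactors and clearance receptors, the receptor Vldlr rose with 132 counts in HKO and 37 in flox, and Lrp2 fell with 5 counts in HKO and 16 in flox, though its interval reached equality with scaling by total counts (−3.26 to 0.06). None of 17 genes of serpin folding and degradation was past 2-fold, and its most abundant members were the chaperones Hspa5, with 17385 counts in HKO and 14587 in flox, and Calr, with 10605 in HKO and 12985 in flox.

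In a list of 22 transcription factors drawn up for liver serpin genes, 1 rose and 3 fell, against 10.4% of all genes that did either. The list had a median log2 ratio of −0.26. Whether each factor acts on serpin genes in these livers was not tested. Onecut1, whose exons share 51.7% of their words with another gene, had 1109 counts in HKO and 406 counts in flox, a log2 ratio of 1.40. Of the clock-output factors, Dbp had 813 counts in HKO and 2071 in flox, and Tef had 2030 in HKO and 4315 in flox. Hnf4a had 13071 counts in HKO and 21602 in flox, a log2 ratio of −0.77. Cux2, which represses male-biased liver genes in female mice, had 269 counts in HKO and 545 in flox, a log2 ratio of −1.07 that became −0.80 with scaling by total counts, and Tef likewise became −0.87.

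Liver genes that differ between the sexes under growth hormone moved in the same libraries and are given beside the serpins. Of 18 measured, 4 rose and 10 fell, against 10.4% of all genes that did either, in a list chosen with earlier results of these data known. By the sex in which each is known to be higher, assigned after the values were seen, 8 of 12 male-biased genes fell and none rose, while of 4 measured female-biased genes 3 rose and 1 fell, and Hao2 and Sult2a8 were assigned to neither. The male-biased genes were not uniform, since 2 of the 12 had log2 ratios above 0, the highest at 0.65. Selenbp2 had 2178 counts in HKO and 9610 counts in flox, Susd4 had 153 in HKO and 668 in flox, and Cyp7b1 had 602 in HKO and 2365 in flox. Mup7, in a family of near-identical copies, had 26852 counts in HKO and 107312 in flox. Of the genes that rose, Cyp2a4 had 696 counts in HKO and 51 in flox, Acot3 had 343 in HKO and 134 in flox, and Hao2 had 50 in HKO and 2 in flox. The labels give no sex. The Y-linked gene Ddx3y had 1317 counts in HKO and 1387 in flox, and Xist had 2 counts in each. By these genes both pools read as male. The part of sex-biased expression in the serpin ratios was not tested.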

How the data were processed

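The authors deposited whole-number counts of reads per gene, 1 file per library. Libraries were made with the NEBNext Ultra RNA kit and read as paired ends on an Illumina HiSeq instrument. The submitters' processing notes name TopHat2 and HTSeq 0.6.1 on GRCm38, while the methods name another aligner and another HTSeq version. Strand setting and the treatment of reads with several alignments are not given in the sources used here. Of 52947 rows, 311 unannotated loci (0.261% of counts in HKO, 0.328% in flox) were left out. Symbols were matched for 52489 IDs, and 147 had none.

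Samples were grouped by genotype label. Scaling factors came from edgeR 4.0.16 (TMM) and DESeq2 1.42.0 under R 4.3.3, neither of which was used for a test. Log2 ratios used a prior of 0.5 counts, a floor of 20 counts over both libraries, and intervals from the share of counts in HKO (SciPy 1.17.1). Sequence sharing was counted in 100-base words of GENCODE M21 transcripts. A count of 0 was read as allowing 3 counts. Ratios were checked on simulated counts.

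Members and lists were chosen with earlier results of these data known. Named were Mettl3, the members measured, and of each list up to 4 genes per direction by size of ratio, or the 2 most abundant where none passed. Hnf4a, neighbouring or overlapping genes, cell type markers, neutrophil proteases, Ddx3y and Xist were named besides, after their values were seen. Alternatives covered the scaling, floor, prior, fold limit, gene type and shared sequence. No protein sequences were used here. Some items, 1 member among them, enter the counts and medians but are not reported singly here.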

Additional observations from a re-analysis of the deposited data

How the results depend on the processing

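With 1 library per genotype, values describe 2 pools. No paired analysis was possible because each genotype had 1 library. Scaling by total counts moved every log2 ratio up by 0.27. It gave 4 serpins risen, 1504 genes risen and 409 fallen, 2 other protease inhibitors called, a serpin median of 0.038, and log2 ratios of 0.22 for Serpina3n, 0.026 for Serpinc1, 0.0043 for Serpinf1 and 0.051 for Serpinf2. DESeq2 factors left 2 other inhibitors called. Setting libraries equal on hepatocyte markers, chosen after seeing the data, moved ratios up by 0.62. It gave 8 serpins risen, a median of 0.39, a Serpina1 sum of −0.75, a Serpina3 sum of 0.14, and 0.062 for Serpina3k, 0.57 for Serpina3n, 0.38 for Serpinc1, 0.36 for Serpinf1, 0.40 for Serpinf2 and 0.26 for Serping1. Without Serpina1e, also chosen afterwards, the Serpina1 sum was −0.75. A limit of 1.5-fold gave 8 serpins risen and 10 fallen, 1872 and 1488 of all genes, 9 target proteases and 9 other inhibitors. A floor of 100 counts gave 458 genes risen and 316 fallen and 1 target protease. The limit of 1.5 on the log2 scale with an exact binomial test gave 319 risen and 308 fallen. The 6 serpins that rose or fell did so under each scaling and with a prior of 2 counts. Among members, depth limits Serpina3c, Serpina3h and Serpina9 most.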
